A study of Homo sapiens with 12 samples.

Results

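The genes of drug efflux and xenobiotic metabolism were examined in MIA PaCa-2 cells, an established human line from a pancreatic carcinoma, after exposure to LE, a leaf extract of the plant Achyranthes aspera. They were all genes of the array's annotation whose symbol opens with ABCA, ABCB, ABCC, ABCG, ALDH, AKR1, GSTA, GSTM, GSTO, GSTP, GSTT, UGT1, UGT2 or SULT, or with CYP and a digit. The rule found 275 features (array spots) of 158 genes, among 43376 features in all. Each of the 12 arrays compared RNA of cells kept in LE at 34 µg/mL with RNA of control cells kept in 2% methanol, the solvent, which the LE cells carried too. Exposure lasted 24 h on 6 arrays, 48 h on 4 and 72 h on 2. LE RNA carried the dye Cy5 on 6 arrays (24 h replicates 2, 3 and 5, 48 h replicates 2 and 3, 72 h replicate 2) and Cy3 on the other 6. The cells were 1 line grown without stroma, and since the methods name duplicate cultures, some of the arrays at 24 h and 48 h may share cultures, so that p-values measure the spread between arrays.

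The members work in 3 steps. Cytochromes P450 (CYP), aldehyde dehydrogenases (ALDH) and aldo-keto reductases (AKR1) oxidise or reduce foreign and endogenous small molecules. Glutathione S-transferases (GST), UDP-glucuronosyltransferases (UGT) and sulfotransferases (SULT) then join the products to glutathione, glucuronic acid or sulfate, and ABC transporters of the A, B, C and G subfamilies pump drugs, conjugates and lipids out of the cell or between its compartments. Many of these genes are best known from liver. Some answer to the aryl hydrocarbon receptor AHR, which binds the xenobiotic response element (XRE), or to NRF2 (NFE2L2), which binds the antioxidant response element (ARE).

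Only 72 of the 275 features (26.2%), standing for 44 of the 158 genes (27.8%), had a value, and the other 203 were blank on all 12 arrays. Among all features with a gene name the share with a value was 42.9%, among all features with or without a name it was 39.5%, and among all genes it was 48.2%. According to the methods, a feature had to meet criteria on brightness, saturation, spot size, the evenness of its pixel ratios and an opposite direction of change at the dye swap, on all arrays. A blank can come from any criterion that was applied and does not show that a gene was silent. The last criterion also bears on the comparison of dye orientations. Of all measured features, 2.0% lay on opposite sides of 0 in the 2 orientations on every array. Above 0 on all 12 arrays lay 0.117%, and below 0 on all 12 lay 0.298%. The values as deposited thus do not show that this criterion was met on all arrays, and its part in the results was not tested. Of the 44 genes with a value, 24 also had blank features.

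The families differed in how much of them was measured. Of the GST features 24 of 45 (53.3%) had a value and of the ALDH features 16 of 37 (43.2%), while the shares were 13 of 66 (19.7%) for the ABC transporters, 15 of 88 (17%) for CYP, 2 of 13 (15.4%) for AKR1, 1 of 11 (9.09%) for SULT and 1 of 15 (6.67%) for UGT. The GST share rested on 2 genes that the array carries as 10 features each, GSTP1 and GSTM1, all 20 of which had values. Counted by gene, GST had 5 of 17 measured, ALDH 12 of 21, CYP 13 of 57 and the ABC transporters 11 of 37. No test was made of these shares, since features of 1 gene are not separate draws from a family.

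**Figure D1:**
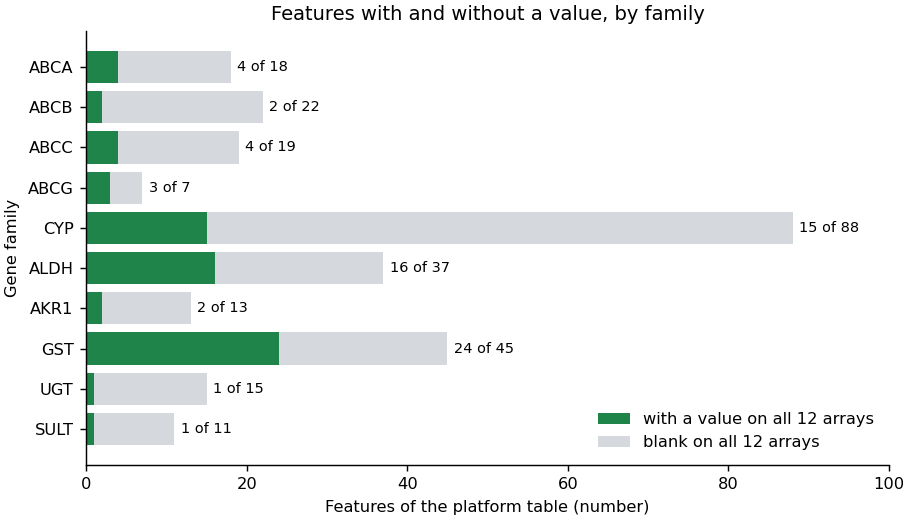
Number of features (horizontal axis) in each gene family (vertical axis), with the features that had a value on all 12 arrays in green and the blank ones in grey. GST has 24 of 45 features with a value and ALDH 16 of 37, while UGT and SULT have 1 each.

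Several well-known genes of drug handling were blank. Blank on every feature were ABCB1, which encodes P-glycoprotein, the conjugate exporters ABCC3 and ABCC4, the AHR target CYP1A1, the main liver drug oxidase CYP3A4, the NRF2 targets AKR1B10, AKR1C3 and ALDH3A1, the retinoic acid enzyme ALDH1A3, all features of GSTA1 to GSTA5, and GSTT1. UGT1A6, UGT2B7, SULT2B1 and SULT1E1 were blank as well. ABCC1 was not among the genes that the rule found, so it counts as neither measured nor blank. The regulator AHR itself was blank. Of the marker genes of epithelial and carcinoma lines 4 of 7 had values (KRT8, KRT18, KRT19 and VIM), on 5 of 21 features (23.8%). Of the hepatocyte marker genes 1 of 5 had a value (SERPINA1), on 1 of 24 features (4.17%). None of the 4 features of INS, GCG, PRSS1 and CPA1 had one. All 3 lists were below the 42.9% of all named features, while 48.2% of all genes had a value. EPCAM, CDH1 and KRT7 were blank.

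The values were log2 ratios, given here as deposited and read as LE over control, after the order of words in the sample titles. They were left unturned because an earlier analysis of these data, not repeated here, found that the study averaged its 72 h ratios unturned. The sources used here do not state the direction, so that this reading is an assumption and is not settled. Arrays with the same dye orientation resembled each other more than arrays of opposite orientation did: over all features the correlation between 2 arrays was 0.0818 to 0.5 where both had LE RNA in Cy5, -0.0178 to 0.437 where both had it in Cy3, and -0.341 to 0.261 (median -0.0341) between orientations. The number format of the table split the same way, with 98.7% to 99.1% of values written to 8 or more decimals on the arrays with LE RNA in Cy5 and 1.2% to 1.73% on the others. Whether ratios of 1 orientation were already turned when the table was made cannot be told from these values. A turned mean, with the sign changed on the arrays with LE RNA in Cy3, is therefore given beside the features with an unadjusted p under 0.05 in the mean and some others.

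A second limit touches the gene names. Features that carry the same gene and the same accession did not share their log2 ratios. Over 167 genes with at least 8 measured features each (1702 features), the intraclass correlation, which is 1 where features of a gene hold the same value and 0 where they are no more alike than any others, lay between -0.0157 and 0.00715 on the 12 arrays. Whether a feature had a value was shared by gene, however: of 238 genes with at least 8 features, 133 had a value on all of them, 65 on none and 40 on some. For these genes, the log2 ratio of 1 feature thus told nothing about the ratios of the gene's other features. Whether each value stands beside its right feature was not tested. The values below are given by feature under the gene name of the annotation, and none of them can be read as the response of its gene.

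No member passed the false discovery rate (FDR) of 0.01 in limma at any of the 3 time points, in their mean or between 72 h and 24 h, and none passed 0.05 either. Over all 17134 measured features, the share called at 0.01 was 0.0525% in the mean (9 features) and 0.0% in the other 4 comparisons, and the share called at 0.05 was 1.24% in the mean and 0.0175% at 72 h.

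At an unadjusted p under 0.05 the members stood close to the whole array. At 24 h there were 3 members (4.17%), beside 5.78% of all features, with 2 higher (2.14% of all features) and 1 lower (3.64%). At 48 h there were 8 (11.1%), beside 9.29%, with 4 higher (5.12%) and 4 lower (4.17%). At 72 h there were 5 (6.94%), beside 8.99%, with 2 higher (4.04%) and 3 lower (4.96%). In the mean there were 11 (15.3%), beside 15.9%, with 6 higher (7.45%) and 5 lower (8.48%). Between 72 h and 24 h 1 member (1.39%) was higher, beside 1.89% of all features higher and 3.9% in both directions. The members' share was below that of all features in 4 of these comparisons and above it at 48 h. Their median log2 ratio was 0.01 at 24 h, -0.04 at 48 h, 0.05 at 72 h and -0.03 over the time points, against 0.02, 0.00, 0.04 and 0.03 for all features.

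Single arrays gave the same description. In the mean of the time points the 72 features ran between log2 ratios of -0.46 and 0.58, or 0.729-fold and 1.5-fold. No member was above 0 on all 12 arrays, and none was below 0 on all 12 (0.117% and 0.298% of all features were). At 24 h, 1 member was above 0 on every array and 0 below, beside 1.41% and 1.39% of all features, and at 48 h 6 were above and 3 below, beside 7.35% and 6.69%. At 72 h, 22 members were above 0 and 13 below 0 on both arrays, where 30.3% and 23.7% of all features were. The same sign at all 3 times was seen for 17 members above 0 and 12 below 0, beside 21.8% and 19.0% of all features.

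The 11 members with an unadjusted p under 0.05 in the mean are described within their families, each with an adjusted p that missed the threshold, and the plot of these features by array shows how far single arrays lay apart.

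**Figure D2:**
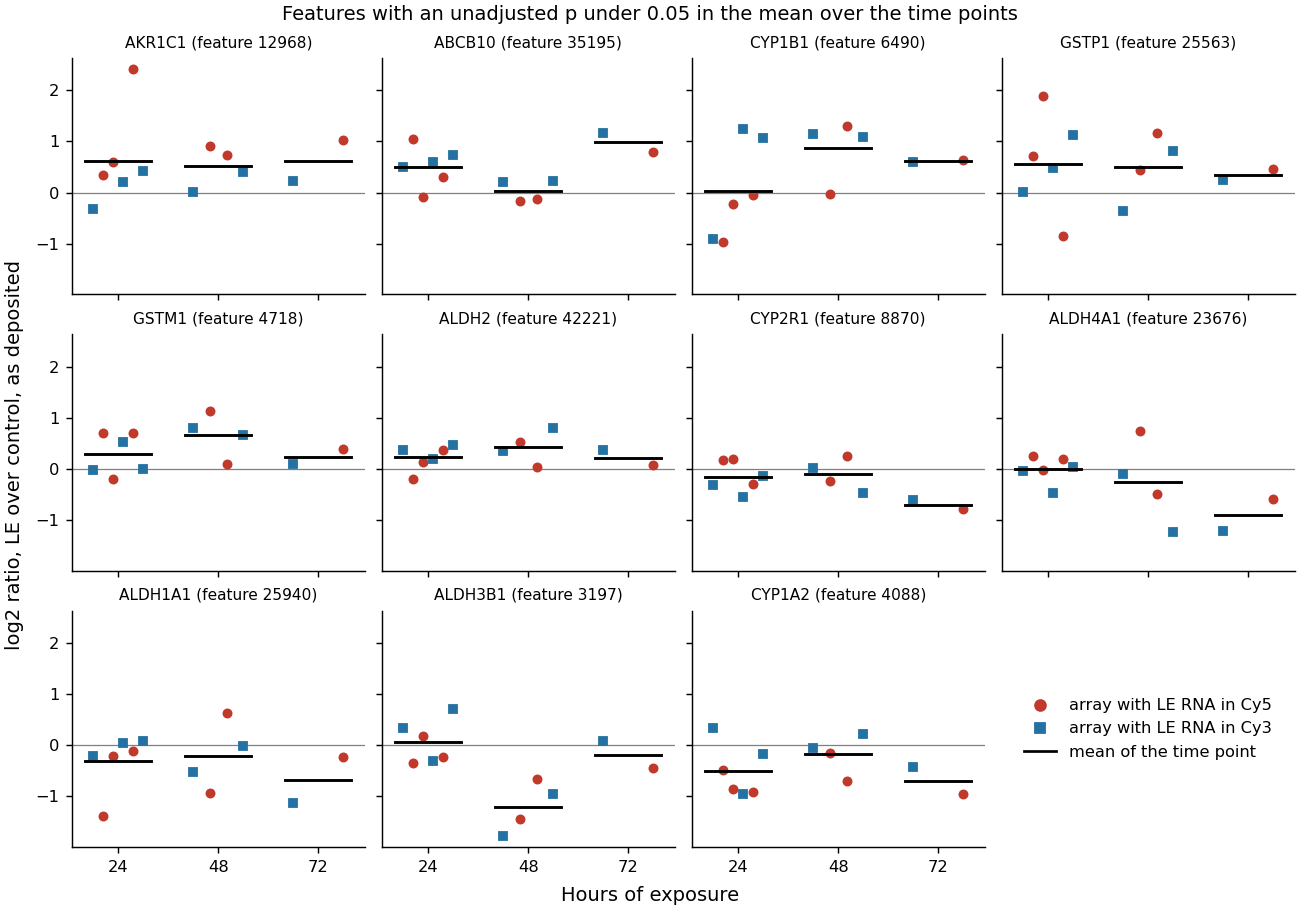
Log2 ratio of LE over control as deposited (vertical axis) on each array, by hours of exposure (horizontal axis), for the 11 member features with an unadjusted p under 0.05 in the mean of the time points, with LE RNA in Cy5 (red circles) or Cy3 (blue squares) and the mean of each time point as a black line. ABCB10 and CYP1A2 lie mostly on 1 side of 0, while 24 h replicate 5 of AKR1C1 stands at 2.42, above its other 11 arrays.

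Among the ABC transporters, the subfamily B had 2 measured features of 22, and both had positive means. ABCB10, a transporter of the inner mitochondrial membrane linked to heme synthesis, ran from -0.09 through a median of 0.54 to 1.05 at 24 h. It was 0.20, -0.16, -0.12 and 0.23 on the 4 arrays of 48 h and 1.17 and 0.80 on the 2 of 72 h, so that 9 of 12 arrays were above 0 and the 48 h arrays lay on both sides of 0. Its mean log2 ratio was 0.51 with a standard error (SE) of 0.13, with a limma adjusted p of 0.0739, the smallest of any member. With the sign turned by dye its mean was -0.15.

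ABCB6, a porphyrin transporter, was above 0 on all 6 arrays of 24 h, the one member of which this held. Its 24 h values ran from 0.11 to 1.18 with a median of 0.37, while 48 h gave 0.94, 0.42, -0.12 and -0.73 and 72 h gave -0.48 and 1.79. The later arrays lay on both sides of 0. The mean was 0.42 (SE 0.21, adjusted p = 0.355 in limma) and the turned mean 0.45. It hung on 72 h, being 0.79 without 72 h replicate 1 and 0.04 without 72 h replicate 2.

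ABCG2, the breast cancer resistance protein and a multidrug exporter, had 0.33 and 0.91 at 72 h and -0.89, 0.86, 0.38 and 0.42 at 48 h. At 24 h it ran from -0.33 to 1.08 with a median of 0.06, and its mean of 0.34 (SE 0.19) had an adjusted p of 0.418 in limma, with a turned mean of 0.33. The arrays lay on both sides of 0 at 24 h and 48 h.

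The exporters of conjugates gave values near 0. ABCC2 (MRP2), which moves glutathione and glucuronide conjugates, had means of -0.11 and -0.09 on its 2 features, ABCC5, an exporter of nucleotide analogues, had 0.06, and ABCC10 had 0.04. The lipid transporters ABCA1 and ABCA7 had -0.09 and 0.31 in the mean, and ABCA5 had -0.81 and -0.86 at 72 h with a mean of -0.27 over the time points. ABCG1, which moves cholesterol, had means of 0.24 and 0.00 on its 2 features. None of these had an unadjusted p under 0.05 in the mean.

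Of the 15 CYP features, 3 had an unadjusted p under 0.05 in the mean, beside 15.9% of all features. CYP1A2, an AHR target known from liver, ran from -0.95 through a median of -0.67 to 0.34 at 24 h, was -0.06, -0.15, -0.69 and 0.23 at 48 h, and -0.43 and -0.96 at 72 h. It was above 0 on 2 of 12 arrays. Its mean of -0.46 (SE 0.16, adjusted p = 0.158 in limma) was made up of -0.68 on arrays with LE RNA in Cy5 and -0.17 on those with it in Cy3, and the turned mean was -0.26.

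CYP1B1, another AHR target, differed in sign from CYP1A2. At 48 h it had 1.14, -0.03, 1.31 and 1.08, a mean of 0.88 (SE 0.35), and at 72 h it had 0.59 and 0.64. At 24 h the arrays spread from -0.97 to 1.25 with a median of -0.14, so that the groups of arrays overlapped. Its mean over the time points was 0.50 (SE 0.22, adjusted p = 0.28 in limma), with 0.11 in the Cy5 orientation, 0.70 in the Cy3 orientation and -0.22 turned.

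CYP2R1, which hydroxylates vitamin D in the liver, had -0.61 and -0.79 at 72 h and a mean of -0.32 (SE 0.13, adjusted p = 0.235 in limma). Its second feature had a mean of -0.22, with -0.43 and -0.32 at 72 h. Both features thus pointed the same way as deposited, and their turned means were 0.07 and 0.03.

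The other CYP features had no unadjusted p under 0.05 in the mean. CYP51A1, the sterol demethylase of cholesterol synthesis, had a mean of 0.22. CYP3A5, a drug oxidase, had -0.10 and CYP20A1, with no settled substrate, had 0.02 and 0.13 on its 2 features. CYP2D6, a drug oxidase whose probe may also bind its close paralogue, had -2.94, -0.28, -0.19 and -0.30 at 48 h, all below 0, and 0.25 and 1.31 at 72 h, both above 0. Its mean was -0.01. The drug oxidases CYP2B6 and CYP3A43 had means of -0.05 and -0.22, the fatty acid hydroxylase CYP2U1 had -0.21, the pseudogene CYP4F30P had 0.03 and the antisense gene CYP51A1-AS1 had -0.12.

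ALDH was the most fully measured family by gene, and 4 of its 16 features had an unadjusted p under 0.05 in the mean, where 15.9% of all features had one. ALDH3B1, an oxidase of lipid aldehydes, carried the smallest unadjusted p of any member at a single time. It had -1.78, -1.45, -0.66 and -0.95 at 48 h, all below 0, a mean of -1.21 (SE 0.24, adjusted p = 0.226 in limma, unadjusted p = 0.000138 in the same limma fit), which is 0.432-fold. With the signs turned by dye the 48 h value was 0.16, and the mean over the time points was -0.10 in place of -0.45 (adjusted p = 0.16 in limma). At 24 h it ran from -0.34 through -0.01 to 0.70 and at 72 h it was 0.08 and -0.45. The 48 h arrays thus lay below every array of the other times. The difference between 48 h and the other times was not tested.

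ALDH1A1, which makes retinoic acid and is used as a stem cell marker, ran from -1.39 through -0.15 to 0.08 at 24 h. It had -0.52, -0.93, 0.64 and -0.02 at 48 h and -1.13 and -0.22 at 72 h. Its mean was -0.39 (SE 0.18, adjusted p = 0.309 in limma), with 3 of 12 arrays above 0, and -0.24 without 72 h replicate 1. Turned, it was 0.08.

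ALDH2, the mitochondrial acetaldehyde enzyme, was above 0 on 11 of 12 arrays on 1 feature, with 0.35, 0.52, 0.03 and 0.80 at 48 h and 0.37 and 0.07 at 72 h, and a mean of 0.29 (SE 0.13, adjusted p = 0.273 in limma, turned mean -0.14). Its second feature had a mean of 0.00, with 0.44 on arrays with LE RNA in Cy5 and -0.43 on those with it in Cy3.

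ALDH4A1, an enzyme of proline breakdown, had -1.22 and -0.59 at 72 h on 1 feature (mean -0.39, SE 0.17, adjusted p = 0.272 in limma, turned mean 0.29) and -0.32 and 0.44 on the other (mean 0.24). The 2 features differed in sign. ALDH18A1, which makes proline, had -0.95 and -0.43 at 72 h and a mean of -0.32. The remaining ALDH genes, which degrade amino acid, lipid and betaine aldehydes, had means between -0.30 (ALDH6A1) and 0.30 (ALDH16A1, whose other feature had -0.07).

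AKR1C1, a steroid reductase and NRF2 target whose probes may bind the near-identical AKR1C2, had the highest mean of the members on 1 feature and a mean of 0.04 on the other. The first ran from -0.32 through 0.38 to 2.42 at 24 h, with 0.01, 0.92, 0.74 and 0.41 at 48 h and 0.22 and 1.02 at 72 h. It was above 0 on 11 of 12 arrays, with a mean of 0.58 (SE 0.22, adjusted p = 0.194 in limma). The mean was 1.01 on arrays with LE RNA in Cy5 and 0.16 on the others, and without 24 h replicate 5, where both features had their highest value, it was 0.46. The turned mean was 0.41.

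Of the conjugating enzymes outside GST, UGT2B10, which glucuronidates amines, had -2.14, -1.05, 0.05 and -0.27 at 48 h and 0.18 and 0.59 at 72 h, with a mean of -0.13. SULT1A1, a phenol sulfotransferase with near-identical copies in the genome, had a mean of -0.04. Each was the one measured feature of its family.

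GSTP1 and GSTM1 show how far 1 gene's features disagreed. GSTP1, the glutathione S-transferase most often raised in tumours, had means between -0.42 and 0.48 on its 10 features, with a median of 0.04 at 24 h, 0.16 at 48 h and 0.46 at 72 h. At 72 h, 9 of the 10 features were above 0 on replicate 1 and 7 of 10 on replicate 2, with a median of 0.39 on both arrays. On the same arrays 43 and 38 of the 72 members were above 0, and the medians of all features were 0.06 and 0.03. Of all 17134 features, 9298 had a 72 h mean above 0. The 10 features are spots of 1 gene and not replicates of the exposure. The feature with the largest mean had 0.25 and 0.46 at 72 h, and its mean over the time points of 0.48 (SE 0.22) had an adjusted p of 0.311 in limma and a turned mean of 0.14. Averaged over its features, GSTP1 had a mean of 0.16 with an adjusted p of 0.488 in limma.

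The features of GSTP1 did not move together from array to array. Over their 45 pairs the correlation across the 12 arrays ran from -0.871 to 0.724 with a median of 0.0287. On 8 of the 12 arrays the SD between the 10 features (0.332 to 1.38) was above the SD of all 17134 features. The single member with an unadjusted p under 0.05 between 72 h and 24 h was 1 of these features, with 0.88 and 0.60 at 72 h and -1.18 to 0.27 at 24 h, a difference of 1.04 with an adjusted p of 1.0 in limma.

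For GSTM1 the SD between the 10 features (0.315 to 0.813) was above the SD of all features on 1 of the 12 arrays. These features had means from -0.19 to 0.40 with a median of -0.07, and the pairwise correlations ran from -0.679 to 0.795 with a median of -0.000253. The feature at 0.40 had 0.80, 1.13, 0.09 and 0.66 at 48 h, all above 0, and 0.09 and 0.40 at 72 h (SE 0.15, adjusted p = 0.188 in limma, turned mean 0.07), while the gene's mean over its features was -0.01. Whether this gene is carried by the cell line was not tested, and its probes may bind the other GSTM genes. GSTM4 and GSTM5 had means of 0.15 and 0.11, and GSTO1, which reduces dehydroascorbate, had -0.20 and 0.14 on its 2 features.

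**Figure D3:**
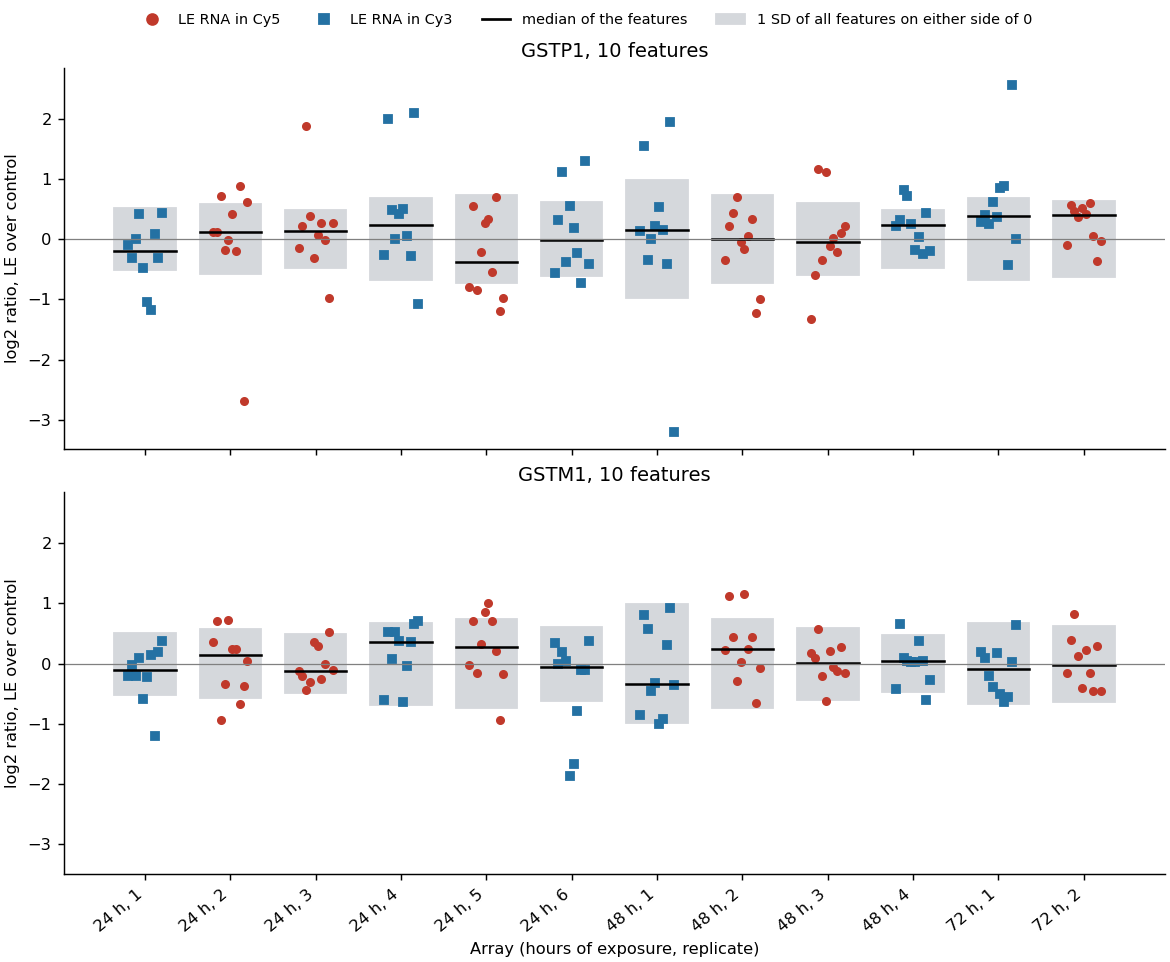
Log2 ratio of LE over control as deposited (vertical axes) of the 10 GSTP1 features (upper panel) and the 10 GSTM1 features (lower panel) on each of the 12 arrays (horizontal axis), with the median as a black line and 1 SD of all features on either side of 0 in grey. On 48 h replicate 1 the GSTP1 features spread from -3.20 to 1.95, and on 72 h replicate 2 from -0.36 to 0.60.

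The promoters of these 2 genes are shown because each gene stands on the array 10 times and each holds an ARE core, the letters TGACNNNGC, searched on both strands. They were chosen after their values and the search were seen. The 250 bases before the annotated start are taken from RefSeq (GRCh38.p14), 5′ to 3′ on the plus strand at chr11:67583562-67583811 and chr1:109687567-109687816, with the ARE core in capitals.
GSTP1: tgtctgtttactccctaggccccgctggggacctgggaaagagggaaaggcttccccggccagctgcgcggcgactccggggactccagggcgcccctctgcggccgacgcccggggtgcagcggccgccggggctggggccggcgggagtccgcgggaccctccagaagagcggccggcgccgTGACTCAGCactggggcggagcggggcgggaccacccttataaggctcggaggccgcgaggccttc
GSTM1: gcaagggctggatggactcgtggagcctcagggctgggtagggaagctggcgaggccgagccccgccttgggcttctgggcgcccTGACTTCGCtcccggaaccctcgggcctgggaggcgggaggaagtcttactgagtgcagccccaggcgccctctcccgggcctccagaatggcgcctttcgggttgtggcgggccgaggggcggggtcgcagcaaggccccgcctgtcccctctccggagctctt
Neither window holds the XRE core GCGTG on either strand.

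Windows of 300 bases, 250 before and 50 after a start, were in the reference for 36 of the 44 measured genes (47 windows). The XRE core stood in 36.2% of them, in 29.5% of the 105 windows of blank members and in 36.5% of all 35116 windows. The ARE core stood in 23.4% of the measured members' windows, those of ABCA5, ABCB6, ABCC10, ABCG2, CYP2B6, CYP4V2, GSTM1, GSTM5, GSTO1, GSTP1 and UGT2B10, in 12.4% of the blank members' windows and in 13.3% of all windows. Such short matches describe letters and not binding.

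Some members differed in sign between the dye orientations. The means of the 2 orientations lay on opposite sides of 0 for 38 of the 72 members (52.8%), beside 56.4% of all features. For CYP4V2, a fatty acid hydroxylase, and for 1 feature of ALDH1B1 every array of 1 orientation lay on the other side of 0 from every array of the other (2.0% of all features did). CYP4V2 had a mean of 0.56 with LE RNA in Cy5 and -0.82 with it in Cy3, and ALDH1B1 had -0.57 and 0.48. ALDH3A2, which oxidises fatty aldehydes, had -1.33 and 0.91, with -3.13 on 24 h replicate 5 and -2.54 on 48 h replicate 2, and 1 feature of GSTP1 had -1.06 and 1.33.

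With the ratios turned by dye, these 4 were the members that passed an FDR of 0.05 in the mean (5.56%, beside 2.56% of all features), and none passed 0.01 (0.0117% of all features did). The turned means were 0.69 for CYP4V2 (adjusted p = 0.0438 in limma), -0.55 for ALDH1B1 (adjusted p = 0.0312 in limma), -1.15 for ALDH3A2 (adjusted p = 0.0455 in limma) and -1.22 for GSTP1 (adjusted p = 0.0437 in limma). As deposited, their means were -0.11, -0.05, -0.25 and 0.37. Which of the readings is a difference between LE and control cells and which a difference between dyes cannot be told apart while the direction is open. Turned, 11 members had an unadjusted p under 0.05 in the mean, against 20.5% of all features.

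**Figure D4:**
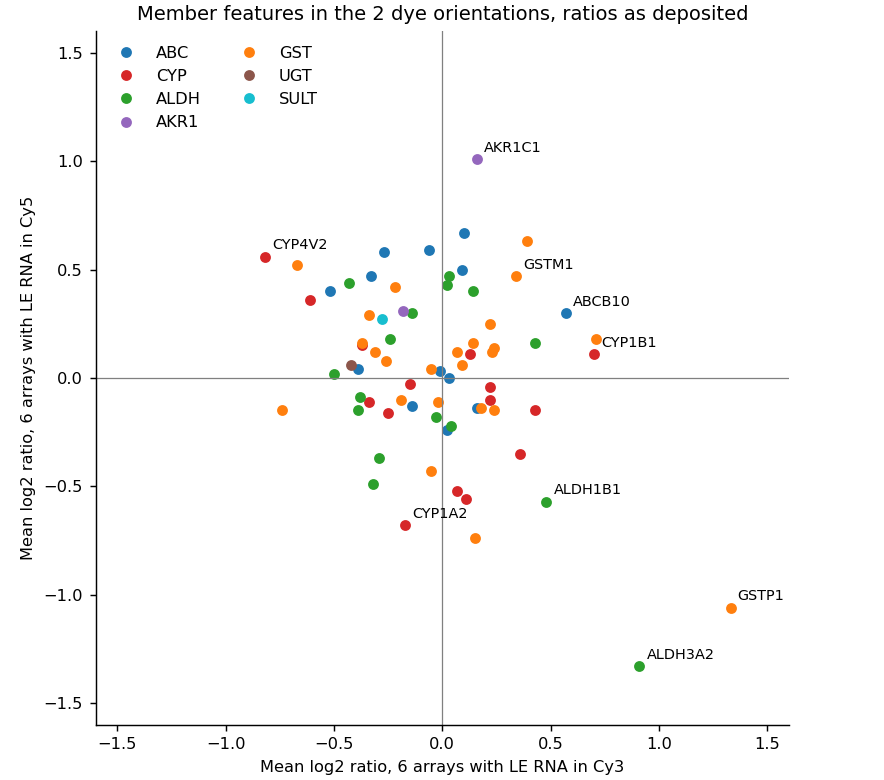
Mean log2 ratio as deposited of each of the 72 measured member features on the 6 arrays with LE RNA in Cy5 (vertical axis) and on the 6 arrays with LE RNA in Cy3 (horizontal axis), coloured by family. Points in the upper left and lower right have means of opposite sign in the 2 orientations, 38 of 72, with ALDH3A2 and 1 GSTP1 feature farthest out.

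The genes that regulate or feed these families were measured to different extents. Of the features of xenobiotic receptors and their partners 62.5% had a value, of NRF2 and its targets outside the families 69.8%, of glutathione metabolism 60.0%, of cofactor and other drug metabolism 41.0%, and of other ABC proteins and uptake carriers 32.1%, beside 42.9% of all named features. By feature, the first 3 lists were thus above that share and the last 2 below it. Some genes stood there many times, such as HMOX1 with 10 measured features and GPX8 with 11. Counted by gene, the shares were 62.5%, 85.2%, 69.0%, 51.3% and 51.7% in the same order. Each was above the 48.2% of all genes. No feature of these lists passed an FDR of 0.01 in any comparison, and 1 passed 0.05.

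That feature was FMO1, a flavin monooxygenase that oxidises amines and sulfur compounds, at -0.68 in the mean (SE 0.15, adjusted p = 0.0396 in limma, below 0 on 11 of 12 arrays). Turned by dye, its mean was 0.22. At an unadjusted p under 0.05 in the mean, 4 of 40 receptor features were higher and 1 lower, 4 and 1 of 37 in the NRF2 list, 1 and 3 of 33 in the glutathione list, 3 and 2 of 25 in the cofactor list and 1 and 1 of 17 among other carriers, against the shares of all features given above.

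Values of the NRF2 list lay on both sides of 0. HMOX1, the heme oxygenase, had means from -0.38 to 0.34 on its 10 features. TXN, thioredoxin, had 0.61 and 0.28 on its 2 features, the first with -0.10 in the Cy5 orientation and 1.01 in the Cy3 orientation. TALDO1, of the pentose phosphate pathway, had -0.79 and -0.08 on its 2 features, the first with 0.32 and -1.47. In the glutathione list GSS, the synthetase, had 0.32, and the glutaredoxins GLRX2 and GLRX3 had -0.77 and -0.74. Among the receptors, NR3C1, the glucocorticoid receptor, had means from -0.31 to 0.50 on its 10 features, and PPARG, the fatty acid receptor, had means from -0.56 to 0.32 on its 10. None of these passed an FDR of 0.05 in limma.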

How the data were processed

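RNA of MIA PaCa-2 cells exposed to LE or to methanol was amplified, labelled with Cy3 or Cy5 and hybridised to Agilent whole human genome arrays. Per the methods, the authors took spot values from the scans in GenePix Pro and dropped poor spots in Acuity. For normalization the methods name limma, with lowess inside each array and quantile scaling across arrays (version not given in the sources used here). Whether the deposited ratios are the output of these steps was not tested. The scale of the deposited ratios was taken as log2. Their medians by array lay between -0.05 and 0.10, and their SDs between 0.478 and 0.985. No scanner intensities were used, so no background or saturation can be given. The number of arrays limits the precision, and 72 h rests on 2.

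Gene names came from the platform annotation. All 158 symbols of the rule matched RefSeq by Entrez ID. A linear model with 1 term per exposure time was run for every feature on the 12 arrays in limma 3.58.1 (R 4.3.3, lmFit and eBayes, 9 residual degrees of freedom), tested on simulated data, with Benjamini-Hochberg adjustment over 17134 features and a threshold of 0.01. Contrasts were each time point, their mean and 72 h minus 24 h. Turned values change the sign on the arrays with LE RNA in Cy3. Tables used pandas 2.3.3 and numpy 2.4.6. Alternatives were a dye term, a replicate block, array weights, centring, quantile normalization, robust moderation, gene means, each time point alone, a looser FDR and leaving out each array.

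The features named were the smallest p of each family in the mean and at each time point, those past an FDR of 0.05, and a list of well-known genes, together 56 of the 72. The other genes named from the pathway lists were chosen after their values were seen. The members and lists were chosen with earlier results of these data known.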

Additional observations from a re-analysis of the deposited data

Results flagged for a closer look

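In groups of 4 or 6 arrays, 12 values of 56 features stood further from the rest of their time point than Dixon's 95% limit allows, out of 112 groups tested, where chance flags about 1 group in 20. At 24 h, replicate 5 had 2.42 and 1.10 on the 2 features of AKR1C1 (other arrays -0.32 to 0.60 and -0.28 to 0.19), 1.18 on ABCB6 (others 0.11 to 0.50) and 0.99 on ALDH7A1 (others -0.12 to 0.25). Replicate 2 had -1.39 on ALDH1A1 (others -0.21 to 0.08) and -0.95 on CYP51A1 (others -0.02 to 0.54). Replicate 1 had -1.04 on 1 feature of GSTP1 (others 0.07 to 0.50).

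At 48 h, replicate 1 had 0.54 on that GSTP1 feature (others -0.18 to -0.11), -0.62 on ABCA1 (others 0.03 to 0.11) and 0.15 on 1 feature of ALDH1B1 (others -0.32 to -0.27). Replicate 2 had -2.54 on ALDH3A2 (others 0.21 to 0.59) and replicate 3 had -0.96 on 1 feature of ABCC2 (others 0.09 to 0.28). Replicate 5 of 24 h carried LE RNA in Cy5, and replicate 1 of 48 h, which had the widest spread of all features (SD 0.985), carried it in Cy3.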

How the results depend on the processing

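No member passed an FDR of 0.01 in any comparison under any alternative run. At the looser FDR of 0.05, ABCB10 passed in the mean with a dye term, with the ratios as deposited. With ratios turned, 4 members passed it in the mean, as given above. Counts of members at an unadjusted p under 0.05 changed by more than 1.5 times as follows. At 24 h (3) they were 8 with ratios turned. At 48 h (8) they were 3 with array weights or each time point alone, and 4 with gene means, quantile normalization or ratios turned. At 72 h (5) they were 8 with a dye term and 3 with each time point alone, gene means or quantile normalization. In the mean (11) they were 7 with gene means. Between 72 h and 24 h (1) they were 2 with array weights, 3 with a dye term and 0 with gene means or ratios turned. Counts with gene means are over the 44 genes with a value and not over 72 features, so they stand on another base. With ratios turned, 636 of all 17134 features were higher and 951 lower at 24 h, and 977 and 1164 at 48 h. Counts of all features under the remaining settings are not given here, so these changes are not particular to the members. Leaving out 1 array gave 1 to 4 members at 24 h (1 without 24 h replicate 3), 2 to 9 at 48 h (2 without 48 h replicate 1, 4 without 48 h replicate 2), 1 to 7 at 72 h (1 and 2 without 72 h replicates 1 and 2), 3 to 13 in the mean (7 and 3 without them), and 1 to 2 between 72 h and 24 h (2 without 24 h replicate 4, 48 h replicate 2 or 4, or 72 h replicate 1). With 1 array left at 72 h, it was assumed to vary like the others. The causes were not tested.

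The same replicate number marks no shared culture in the labels, and same-numbered arrays always shared their dye orientation. The correlation of their deviations ran from 0.0584 to 0.489 (median 0.183, 8 pairs), beside 0.018 to 0.479 (median 0.24) for 14 pairs of other numbers in 1 orientation. Since not every pair was above 0.1, the numbers were not taken as pairs. At 72 h the deviations of the 2 arrays are equal and opposite, and these arrays differ in both number and dye orientation. Pairs with a 72 h array therefore cannot separate number from dye by themselves. With the replicate block (correlation 0.187), 2 members had an unadjusted p under 0.05 between 72 h and 24 h, and 9 of the 11 features in the mean kept one.

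Of the 11 features in the mean, 11 kept an unadjusted p under 0.05 with a dye term and 0 with ratios turned. Turning changed the sign of 34 of the 56 named features in the mean, to 0.39 for ABCA1, 0.16 for ABCA5, -0.15 for ABCB10, -0.19 for ABCC10, -0.22 for CYP1B1, -0.34 and -0.03 for CYP20A1, 0.07 and 0.03 for CYP2R1, 0.30 for CYP3A5, -0.32 for CYP51A1, 0.17 for ALDH18A1, 0.08 for ALDH1A1, -0.14 for ALDH2, 0.29 for ALDH4A1, 0.24 for ALDH7A1, 0.19 for ALDH9A1, 0.12, 0.02, 0.10, 0.55, 0.22, 0.04, -0.10 and -0.24 for features of GSTM1, -0.22, -0.07, -0.06, -0.01, 0.29, -1.22 and 0.27 for features of GSTP1, 0.25 for UGT2B10 and 0.29 for SULT1A1. Other settings changed fewer signs: array weights gave CYP20A1 -0.05, GSTM1 0.00 and SULT1A1 0.02, centring gave CYP20A1 -0.01, ALDH2 -0.03 and GSTM1 0.00, quantile normalization gave SULT1A1 0.00, and gene means gave GSTM1 -0.01 (4 features, 1 of them at 0.40 by itself), GSTO1 -0.03 and GSTP1 0.16 (3 features, 1 of them at -0.42 by itself).

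Leaving out 1 array changed the sign of 23 features, none among the 11: ABCA1 (-0.19 to 0.03), ABCC10 (-0.07 to 0.16), ABCC2 (-0.25 to 0.08), ABCC5 (-0.01 to 0.17), CYP20A1 (-0.07 to 0.15), CYP3A5 (-0.23 to 0.04), ALDH1B1 (-0.24 to 0.14 and -0.17 to 0.09), ALDH2 (-0.19 to 0.19), ALDH3A2 (-0.72 to 0.22), ALDH7A1 (-0.13 to 0.10), ALDH9A1 (-0.16 to 0.00), AKR1C1 (-0.04 to 0.13), GSTM1 (-0.01 to 0.34, -0.22 to 0.00, -0.19 to 0.06, -0.06 to 0.12 and -0.16 to 0.21), GSTO1 (-0.01 to 0.29), GSTP1 (-0.15 to 0.01 and -0.12 to 0.86), UGT2B10 (-0.23 to 0.01) and SULT1A1 (-0.18 to 0.10).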
